A study of Mus musculus with 9 samples.

Results

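Myoglobin and 9 genes of the hypoxia response were followed through mouse skeletal muscle cells and muscle: Mb, Hif1a, Epas1, Egln1, Egln3, Vegfa, Vegfb, Bnip3, Ndrg1 and Car9. The members were given as a list of symbols, and each was matched to 1 Ensembl identifier among the 46078 genes listed for cultured cells and the 38293 listed for muscle. RNA sequencing covered 9 libraries from C57BL/6 mice, with no genetic change named in the labels. MB, primary myoblasts kept in growth medium with basic FGF, and MT, the myotubes formed after 3 days in differentiation medium, had 2 biological replicates each. MB_lac, MB given 10 mM sodium-L-lactate in PBS, also had 2, and the labels state that control cells received the same amount of PBS but not for how long. GAS, the gastrocnemius muscle of adult female mice, had 3. The labels name no treatment with low oxygen. They do not say whether the MB, MT and MB_lac libraries came from separate isolations of cells, and p-values therefore measure the spread between libraries only.

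Myoglobin is the heme protein that stores oxygen in muscle cells and helps it diffuse to mitochondria. Hypoxia inducible factors (HIFs) pair an oxygen-regulated alpha subunit, such as the products of Hif1a and Epas1, with the stable partner ARNT. In the presence of oxygen, the prolyl hydroxylases encoded by Egln1 and Egln3 mark the alpha subunits for binding by VHL and for degradation, so that much of the regulation occurs on the protein and is not seen in mRNA. HIFs bind a short core sequence and activate genes for vessel growth, glycolysis, mitophagy and pH control, and several of the hydroxylase genes are targets themselves.

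The GAS libraries held 19307793 to 19941574 counts on genes and those of cultured cells 5198247 to 10839516. By depth alone, 3 counts thus corresponded to at most 0.155 CPM (counts scaled to the depth of the library) in GAS and to 0.277 to 0.577 CPM in culture. The levels given in CPM were also scaled for library composition, which shifts this floor. For example, 3 counts of Mb in MB_lac replicate 1 were 0.527 CPM, against 0.405 CPM by depth alone. RPKM are CPM per kilobase of exon. Gene positions are those of GENCODE M21 on mm10 and span all exons and introns of a gene. Myotube markers went with the labels, and myoblast markers did so in part. Of 6 myotube markers 6 rose in MT, and their summed level was 10739 and 13895 CPM in MT against 97.6 to 210 CPM in the MB and MB_lac libraries. Of 5 myoblast markers 1, Pax7, fell, and 4 did not pass the test. All 5 had a log2FC below 0, but for 2 of them the MT and MB libraries overlapped. MT replicate 1 stood apart in its content of markers of other cells: all 6 endothelial markers were detected, with 190 counts and a summed level of 14.1 CPM, against 0.241 to 1.23 CPM in the other cultured libraries, where 3 to 5 of the 6 were at 0. Pecam1 and Esam were not higher in MT replicate 1, at 0.149 CPM each against 0.245 CPM each in MB replicate 1. Erythroid markers summed to 7.59 CPM in MT replicate 1 and to between 0 and 1.24 CPM in the others. Hba-a1 and Hba-a2 had 0 counts in MT replicate 1.

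Between MT and MB, 3 of the 8 members that passed the filter on low counts rose, namely Mb, Bnip3 and Ndrg1, and 0 fell. Across all 12921 genes tested, 11.0% were called higher and 6.86% lower, at an adjusted p under 0.05 and an absolute log2 fold change (log2FC) over 0.5. At an unadjusted p under 0.05 the count of lower members was also 0, and DESeq2 likewise called 0 lower. The median log2FC of the 8 members was 1.06, beside 0.07 for all genes tested. Epas1 and Car9 did not pass the filter and were compared by their counts. In bulk RNA, a larger share of cells with a transcript and more transcript per cell cannot be told apart. The plot of cultured libraries shows each value.

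**Figure D1:**
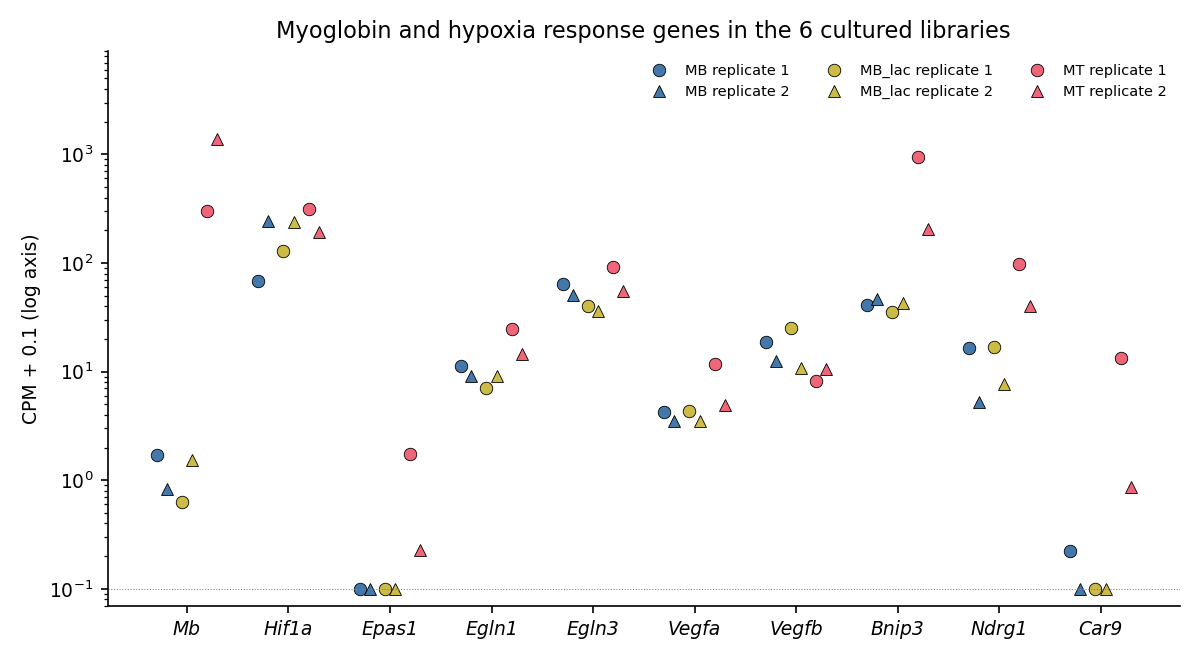
Level of each gene in CPM plus 0.1 on a log axis, with circles for replicate 1 and triangles for replicate 2 of MB (blue), MB_lac (yellow) and MT (red). The dotted line marks a count of 0. Mb, Bnip3, Ndrg1 and Car9 in MT lie above MB and MB_lac, and the MT replicates are far apart for Mb, Bnip3 and Car9.

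Mb (ENSMUSG00000018893, chr15:77015487-77050670, minus strand) had the largest difference among the members. Its level was 304 CPM in MT replicate 1 and 1392 CPM in replicate 2, against 1.59 and 0.723 CPM in MB, where these values rest on 13 and 6 counts. Both MT libraries were thus far above both MB libraries, although replicate 1 was at 0.218 times the level of replicate 2. The log2FC was 9.44 ± 0.98 (SE), a 693-fold difference with an adjusted p of 0.000202 in edgeR's quasi-likelihood test. The log2FC stayed between 7.91 (without MT replicate 2) and 10.13 (without MT replicate 1). On a scale per length, Mb had the highest mean RPKM of the members in MT, 569 ± 516 (SD, n = 2), and the third lowest in MB, 0.776 ± 0.412.

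The alpha subunits differed from each other in level. Hif1a (ENSMUSG00000021109, chr12:73901375-73947530, plus strand) was at 316 and 191 CPM in MT and at 68.3 and 243 CPM in MB. The groups overlapped, with MB replicates that differed 3.56-fold, and the log2FC of 0.77 ± 0.59 did not pass the test (adjusted p = 0.396). Replicate 1 was also the lower one in MB_lac, at 129 against 239 CPM, but not in MT. Without MB replicate 2, which leaves 1 library for MB, the log2FC was 1.74. Epas1 (ENSMUSG00000024140, chr17:86753700-86833410, plus strand), which encodes HIF-2 alpha and is known for its expression in endothelium, had 22 counts in MT replicate 1, 1 in replicate 2 and 0 in both MB libraries. The mean of MT, 0.883 CPM, was at least 2.42-fold higher than the floor of 3 counts per library in MB. MT replicate 2 alone, at 0.127 CPM, was below that floor, so that the value rests on replicate 1, the library with the endothelial marker counts. Their part in it was not tested.

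The prolyl hydroxylase genes did not pass the test. Egln1 (ENSMUSG00000031987, chr8:124908587-124949324, minus strand), the main hydroxylase of HIF alpha in most tissues, was at 24.7 and 14.4 CPM in MT and at 11.3 and 8.92 CPM in MB. The groups did not overlap, and the log2FC was 0.97 ± 0.57 (adjusted p = 0.266), or 0.43 without MT replicate 1. Egln3 (ENSMUSG00000035105, chr12:54178981-54203860, minus strand), itself a HIF target, was at 91.6 and 55.4 CPM in MT and at 64.1 and 51.1 CPM in MB. Here the groups overlapped, and the log2FC of 0.36 ± 0.47 (adjusted p = 0.633) was -0.13 without MT replicate 1. In both MT and MB, Egln3 had more RPKM than Egln1, 27.6 against 5.44 in MT and 21.6 against 2.81 in MB, in each of the 4 libraries.

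Among the targets, Bnip3 (ENSMUSG00000078566, chr7:138890836-138909519, minus strand), a mitochondrial protein of mitophagy and cell death, rose from 40.7 and 47.0 CPM in MB to 946 and 205 CPM in MT. The log2FC was 3.77 ± 0.74 (adjusted p = 0.00678), and 2.17 without MT replicate 1 (adjusted p = 0.0306). Ndrg1 (ENSMUSG00000005125, chr15:66929318-66969640, minus strand), a stress-responsive gene that hypoxia induces in many cell types, was at 98.7 and 39.8 CPM in MT and at 16.5 and 5.18 CPM in MB. All MT values were above all MB values, and the log2FC was 2.67 ± 0.70 (adjusted p = 0.0250). This call was lost without MT replicate 1, with a log2FC of 1.76 and an adjusted p of 0.179. Car9 (ENSMUSG00000028463, chr4:43506966-43513729, plus strand), a carbonic anhydrase of the cell surface and a classical hypoxia marker, had 178 and 6 counts in MT against 1 and 0 in MB. The ratio of the levels, MT over MB, was 142, with a 95% exact interval of 25.2 to 5647 that covers counting error only. MT replicate 2 alone gave a ratio of 12.6 (interval 1.52 to 578), and the replicates of MT differed 17.4-fold.

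The vascular growth factors did not pass the test. Vegfa (ENSMUSG00000023951, chr17:46016993-46032369, minus strand), the main signal for vessel growth and a HIF target, was at 11.5 and 4.83 CPM in MT and at 4.17 and 3.37 CPM in MB, with a log2FC of 1.15 ± 0.74 (adjusted p = 0.312) that was 0.28 without MT replicate 1. Vegfb (ENSMUSG00000024962, chr19:6982473-6987651, minus strand), which is linked to fatty acid uptake in the vessel wall and is not a typical HIF target, was at 8.04 and 10.6 CPM in MT and at 18.6 and 12.3 CPM in MB. It was the member with the lowest log2FC, -0.76 ± 0.57 (adjusted p = 0.385), and its groups did not overlap. Among the 8 tested members, both MT libraries were above both MB libraries for 5 and below them for 1, while 32.9% and 29.2% of all genes tested behaved in these ways.

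Other genes of the pathway were counted in lists that were chosen with earlier results of these data known. Of 25 other HIF targets 22 were tested, and 11 rose and 1 fell, with a median log2FC of 1.47. Of all genes tested, 11.0% rose and 6.86% fell. The largest differences were those of Bhlhe40, a transcriptional repressor (log2FC 4.81 ± 0.51, adjusted p = 0.000227), P4ha2, a collagen prolyl hydroxylase (4.70 ± 0.72, adjusted p = 0.00203), Ero1l, an oxidase of the endoplasmic reticulum (3.52 ± 0.93, adjusted p = 0.0262), and Plod2, a collagen lysyl hydroxylase (3.31 ± 0.71, adjusted p = 0.0103). The 1 that fell was Hmox1, a heme-degrading enzyme that also answers to oxidative stress (-1.60 ± 0.46, adjusted p = 0.0372), which is named after its values were seen. Fam162a, the uncalled gene of this list with the highest mean RPKM over MT and MB, had a log2FC of 1.35 ± 0.53 (adjusted p = 0.102), or 0.53 without MT replicate 1. Without MT replicate 1, the number of targets called higher was 2 in place of 11, namely Bhlhe40 and P4ha2, and 0 were called lower. Bhlhe40 was similar in both MT libraries, at 272 and 225 CPM, against 9.68 and 8.07 CPM in MB. Ero1l was at 861 CPM in MT replicate 1 but at 81.3 CPM in replicate 2, against 28.6 and 59.3 CPM in MB, and its log2FC without MT replicate 1 was 0.85, while that of Plod2 was 1.71 (adjusted p = 0.136).

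**Figure D2:**
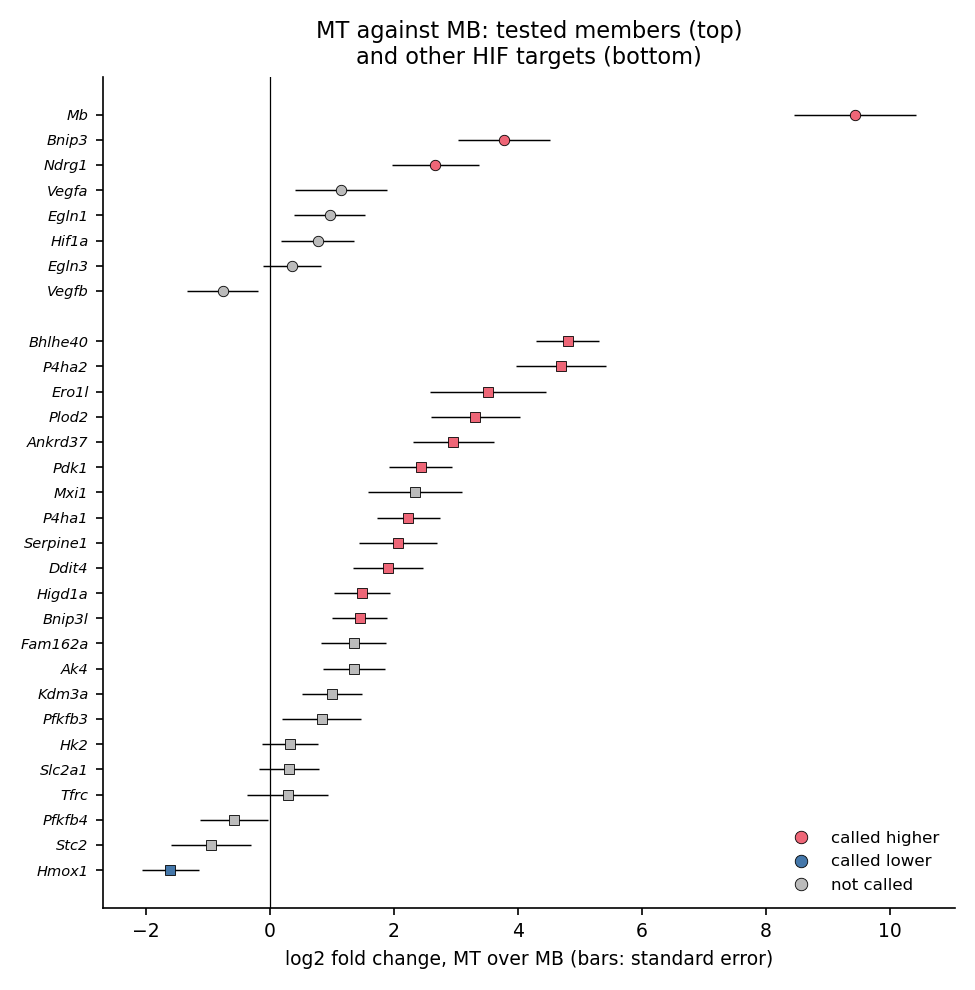
Fitted log2FC of MT over MB for the 8 tested members (circles, top) and 22 other HIF targets (squares, bottom), with bars for the standard error, red for called higher, blue for called lower and grey for not called. Mb is farthest to the right at 9.44, 3 members and 11 other targets are red, and Hmox1 is blue at -1.60.

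Of 14 oxygen sensing partners, among them hydroxylases, the VHL complex, HIF beta subunits and co-activators, 13 were tested. Of these 0 rose and 1 fell, beside 11.0% and 6.86% of all genes tested, and the median log2FC was 0.21. Cited2, which competes with HIF alpha for its co-activators, fell from 31.9 and 28.8 CPM in MB to 5.81 and 11.2 CPM in MT (log2FC -1.87 ± 0.54, adjusted p = 0.0378), a call that was lost without MT replicate 1 (log2FC -1.51, adjusted p = 0.361). At an unadjusted p under 0.05, 0 of these partners were higher and 2 lower, and DESeq2 gave the same numbers at this limit. Elob, a subunit of the VHL complex and the uncalled gene with the highest mean RPKM over MT and MB, had a log2FC of 0.22 ± 0.45 (adjusted p = 0.780). Of the 8 further genes of the VEGF family and its receptors, 5 were tested and 0 called, with 1 higher at an unadjusted p under 0.05 by edgeR and 2 by DESeq2. Nrp1, a co-receptor of VEGF and the one with the highest mean RPKM over MT and MB, had a log2FC of 0.64 ± 0.55 (adjusted p = 0.456). Without MT replicate 2, which leaves replicate 1 to stand for MT, the endothelial receptors Kdr and Flt4 entered the test and were called. They were at 4.62 and 7.15 CPM in MT replicate 1 and at 0 in replicate 2, and are named after their values were seen.

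Relatives of the members by gene family numbered 9, of which 6 were tested. Of these 3 rose and 0 fell, beside 11.0% and 6.86% of all genes tested. Car3, the cytosolic carbonic anhydrase of muscle, had a log2FC of 8.84 ± 1.07 (adjusted p = 0.000480), with 33.3 and 150 CPM in MT and 0 and 0.362 CPM in MB. Since MB was at or under the floor of 3 counts, this fitted value depends on the prior count. Car3 passed the filter on low counts only through MT, with 447 and 1178 counts. Once tested it could only rise, so that its call carries no information on direction. Ndrg4 rose from 20.3 and 17.5 CPM in MB to 198 and 367 CPM in MT (log2FC 3.87 ± 0.51, adjusted p = 0.000770). Ndrg2 rose from 10.0 and 4.22 CPM to 161 and 31.2 CPM (log2FC 3.78 ± 0.82, adjusted p = 0.0108), and was not called without MT replicate 1 (adjusted p = 0.114). At an unadjusted p under 0.05 the number of lower relatives was 0 by edgeR and by DESeq2.

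Promoter sequence was available from RefSeq (GRCm38.p6, the assembly also known as mm10) for 8 of the 10 members, in 11 windows of 250 bases before a start site. Epas1 and Ndrg1 had no entry. The windows were searched on both strands for the core of the hypoxia response element, ACGTG or GCGTG, and for the E-box CANNTG, which overlaps the core where CACGTG occurs. The core was present in 7 of the 11 windows, at least 1 for each of these 8 members but Mb. For Vegfa the window with the core lies inside the gene. Of 32851 windows of all genes, 38.6% held the core (ACGTG in 16.6%, GCGTG in 28.2%), while CANNTG was in 66.2%. Such matches are frequent and describe the letters only. The stretches of the members with the most matches (Bnip3), the match nearest to the start (Car9), a single distant match (Egln3) and no match (Mb) are printed, with core matches of either strand in capitals. Bnip3 is the minus strand of chr7:138909520-138909756, upstream of the annotated exons, with 5 matches, of which 2 are the readings of 1 CACGTG on both strands. Car9 is limited to the 30 bases before the RefSeq start, chr4:43506996-43507025 on the plus strand, which lie in the first exon of another annotated transcript. Egln3 is the minus strand of chr12:54203875-54204124, upstream of the gene. Mb is the minus strand of chr15:77022788-77023037, 1 of 3 windows of this gene, all without a core match, and lies in an intron of longer annotated transcripts.
Bnip3: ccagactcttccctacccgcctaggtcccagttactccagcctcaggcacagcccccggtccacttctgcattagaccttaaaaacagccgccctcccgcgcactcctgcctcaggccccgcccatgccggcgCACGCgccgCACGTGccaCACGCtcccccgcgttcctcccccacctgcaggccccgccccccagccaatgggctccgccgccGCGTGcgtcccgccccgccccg
Car9: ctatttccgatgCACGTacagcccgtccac
Egln3: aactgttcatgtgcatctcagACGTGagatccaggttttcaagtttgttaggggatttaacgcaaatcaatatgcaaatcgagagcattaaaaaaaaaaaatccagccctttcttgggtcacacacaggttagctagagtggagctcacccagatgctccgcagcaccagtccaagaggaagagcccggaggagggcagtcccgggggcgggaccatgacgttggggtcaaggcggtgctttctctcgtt
Mb: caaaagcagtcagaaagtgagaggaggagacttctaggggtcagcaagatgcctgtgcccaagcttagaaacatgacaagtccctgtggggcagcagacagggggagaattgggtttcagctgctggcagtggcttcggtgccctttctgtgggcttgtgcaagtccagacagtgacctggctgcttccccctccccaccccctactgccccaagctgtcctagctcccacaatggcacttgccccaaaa
Bnip3 and Mb, which both rose in MT, thus had 5 and 0 core matches in these windows. Of the members that did not pass the test, Hif1a had 3 matches, of which 2 are the readings of 1 CACGTG on both strands. Egln1 had 2, Vegfb 2 and Egln3 1. Vegfa had 0 in its window upstream of the gene and 2 in its other window. That other window, chr17:46025164-46025413, lies inside the gene, and its overlap with exons was not checked. The window of Hif1a, chr12:73907617-73907866, lies inside the annotated gene as well.

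The MT replicates differed in most hypoxia response genes in the same way. Replicate 1 was above replicate 2 for 8 of the 10 members and for 6 of the 8 tested ones, with a median log2 ratio of 0.74, computed with 0.5 CPM added. Of 22 other HIF targets 16 were higher in replicate 1, with a median of 0.59. Among all 12921 genes tested, 42.0% were higher in replicate 1, and the median was -0.14. Bnip3 differed 4.61-fold, Ndrg1 2.48-fold and Vegfa 2.39-fold. Mb and Vegfb went the other way, with log2 ratios of -2.19 and -0.37. Mb shared this with the markers of muscle fibers: 0 of 6 slow fiber markers were higher in replicate 1 (median -1.28), as were 1 of 6 fast fiber markers and 1 of 6 myotube markers. The MB replicates also differed, with replicate 1 above replicate 2 for 6 of the 8 tested members, but for 12 of the 22 targets, with medians of 0.32 and 0.08 beside 0 for all genes tested. The oxygen sensing partners were divided in MT, with 6 of 13 higher in replicate 1. The library with higher hypoxia response genes was also the one with endothelial and erythroid marker counts, and had the largest depth, and the part of these in the difference was not tested. With 2 MT libraries, no test between them is possible.

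**Figure D3:**
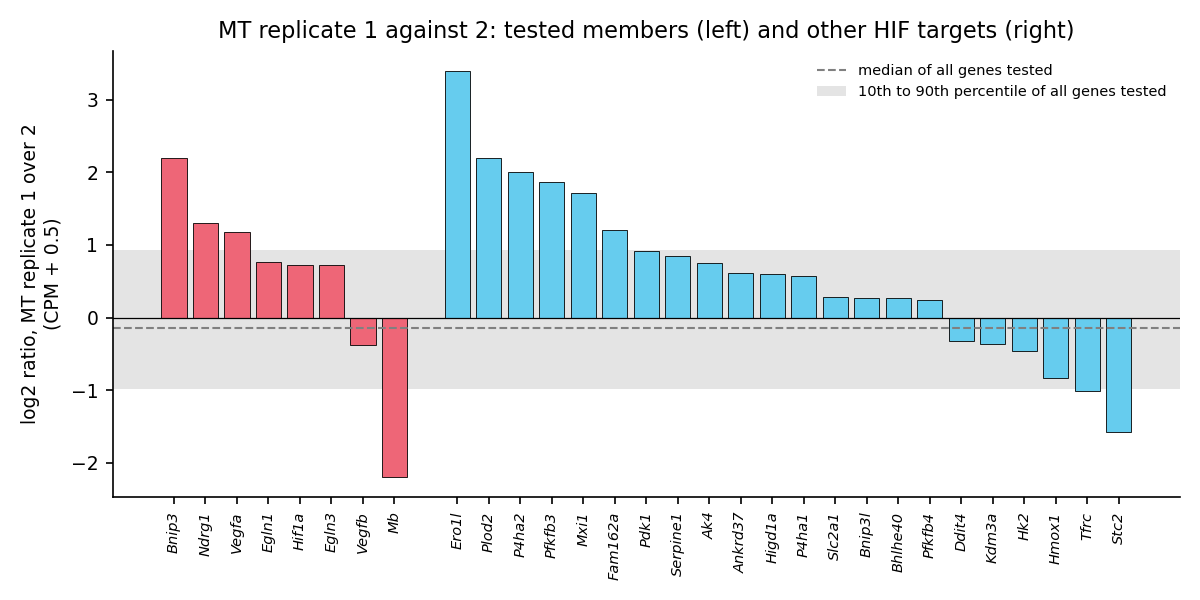
Log2 ratio of MT replicate 1 over replicate 2, from CPM with 0.5 added, for the 8 tested members (red bars) and 22 other HIF targets (blue bars). The dashed line is the median of all genes tested (-0.14) and the grey band their 10th to 90th percentile. Bars above 0 prevail in both sets (6 of 8 and 16 of 22), and Mb is the lowest at -2.19.

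To learn whether lactate changed these genes in MB, MB_lac was compared with control MB. None of the 8 members tested passed the study's limit of a nominal p under 0.01 with an absolute log2FC over 0.5, and 0 of all 11804 genes (0%) did so in edgeR's quasi-likelihood test. At an unadjusted p under 0.05, 0 members and 5 of all genes differed (2 higher and 3 lower), and with DESeq2 0 members and 3 genes. Without any difference, more genes than these would reach a p under 0.05, so that the lack of calls carries little information. DESeq2 found 1 gene, no member, past the study's limit. The nominal p of the members in edgeR lay between 0.160 (Egln3) and 0.966 (Vegfa), and the adjusted p was 1.00 for each. Replicate numbers are not stated to mark shared cultures, so that ratios within a number are a description. Same-numbered libraries of MB_lac and MB nevertheless deviated together (r = 0.70). A block for the number lowered the estimated variation between replicates (biological CV) from 0.455 to 0.225. With this block in edgeR's quasi-likelihood test, 13 of all genes and 0 members passed the study's limit, and Egln3 had a p of 0.0536. Within replicate numbers, 2 members had lower values with lactate in both (20.3% of all genes), 2 had higher values in both (22.7%) and 4 moved in opposite directions.

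Egln3 had the largest absolute log2FC of the members. It was at 40.4 and 35.7 CPM in MB_lac and at 64.1 and 51.1 CPM in MB, so that both lactate libraries were below both controls, as for 6.84% of all genes. The log2 ratio was -0.66 for replicate number 1 and -0.51 for number 2, and the log2FC was -0.63 ± 0.40. Bnip3 was the other member with lower values under both numbers, at 35.3 and 43.0 CPM with lactate, with ratios of -0.20 and -0.13 and a log2FC of -0.19 ± 0.41. The groups overlapped here.

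The remaining members showed no common direction. Hif1a was at 129 and 239 CPM with lactate, with a ratio of 0.92 for number 1 and -0.02 for number 2 (log2FC 0.22 ± 0.68). Egln1 was at 7.03 and 9.07 CPM, with ratios of -0.65 and 0.02 (log2FC -0.36 ± 0.50). Lactate and control libraries overlapped for both. Vegfa stood at 4.22 and 3.38 CPM with lactate beside 4.17 and 3.37 CPM in control cells, with ratios of 0.015 and 0.001, both counted as higher although they differ little from 0 (log2FC -0.03 ± 0.59). Vegfb was at 24.9 and 10.7 CPM (log2FC 0.16 ± 0.57) and Ndrg1 at 16.9 and 7.64 CPM (log2FC 0.13 ± 0.71). Mb had 3 and 8 counts with lactate, 0.527 and 1.42 CPM, and a log2FC of -0.27 ± 0.99. At these counts the direction of a change of Mb could not be given. Epas1 and Car9 had 0 counts in both lactate libraries, where the floor of 3 counts is at most 0.577 CPM by depth alone. Of the other HIF targets 22 were tested, 0 were called, and the median log2FC was -0.10, beside -0.003 for all genes tested, and of the oxygen sensing partners 13 were tested and 0 called. At an unadjusted p under 0.05 both lists had 0 genes, with edgeR and with DESeq2.

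**Figure D4:**
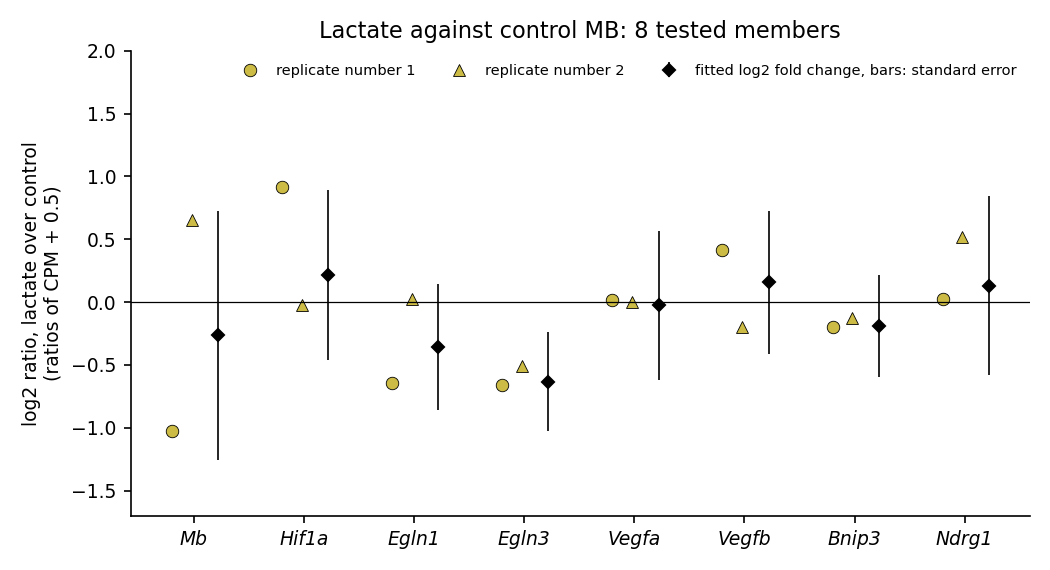
Log2 ratio of lactate over control MB for the 8 tested members within replicate number 1 (circles) and 2 (triangles), from CPM with 0.5 added, and the fitted log2FC with its standard error (diamonds with bars). For Egln3 both ratios are below 0, at -0.66 and -0.51, and for Mb, Hif1a, Egln1 and Vegfb they lie on either side of 0.

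In GAS, all 10 members had a mean RPKM over 1. Mb was the highest at 541, 930 and 442 RPKM in the 3 replicates, 637 ± 258 (SD, n = 3), and ranked 58 among 36345 genes. Bnip3 followed with 88.0 ± 8.64 RPKM and Egln1 with 68.8 ± 3.22, and the replicates of neighbours in this order did not overlap, although those of Egln1 and Vegfa did when the length of the longest transcript was used. Vegfa, at 46.2 ± 10.2, and Vegfb, at 38.5 ± 3.40, could not be separated, nor could Epas1, at 15.3 ± 0.538, and Egln3, at 14.1 ± 6.45. Hif1a had 3.22 ± 0.374 RPKM, Ndrg1 2.33 ± 0.152 and Car9 1.25 ± 0.406, each without overlap with the next, but with the length of the longest transcript Hif1a and Ndrg1 overlapped. The endothelial markers summed to 149 to 155 CPM and the erythroid markers to 998 to 5213 CPM in this whole tissue, and the cells that contributed Epas1 and Vegfa reads cannot be told apart.

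The order in GAS was unlike that in culture, where the libraries were prepared with another protocol and no test was made. Epas1 was above Hif1a in each GAS replicate, at 14.7 to 15.7 against 2.81 to 3.54 RPKM, whereas Hif1a was at 11.6 to 53.6 RPKM and Epas1 at most 0.293 RPKM in the cultured libraries. Egln1 was above Egln3 in each GAS replicate, at 66.3 to 72.4 against 9.94 to 21.6 RPKM, and below it in each cultured library. Vegfa had 36.0 to 56.4 RPKM in GAS and 0.788 to 2.69 in culture. Mb reached GAS levels in MT replicate 2, with 933 RPKM. These values are set side by side across separately scaled tables.

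**Figure D5:**
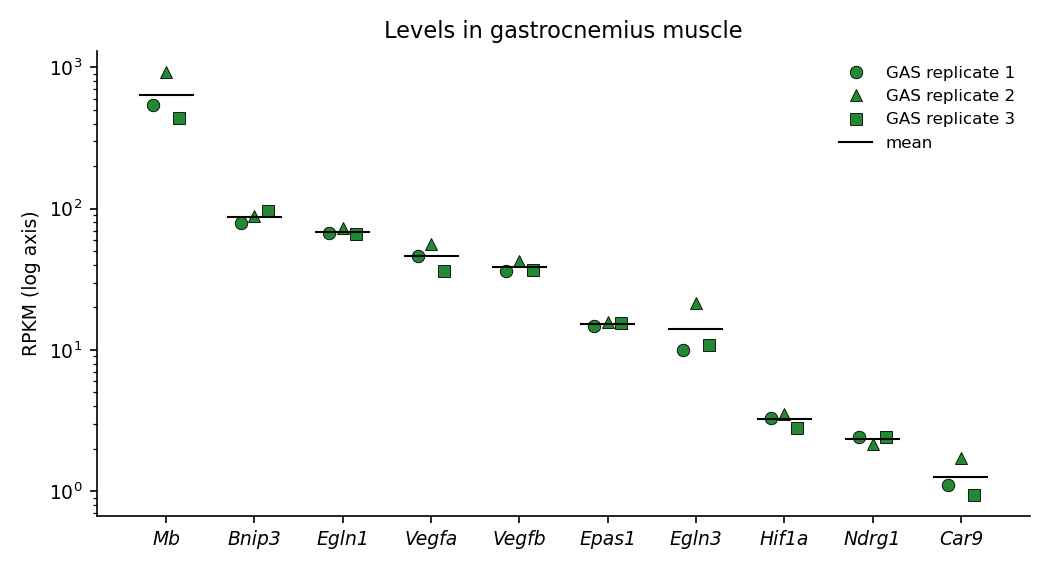
RPKM of the 10 genes in the 3 GAS replicates on a log axis, ordered by mean, with a black line for the mean. Mb leads at 442 to 930 RPKM, Car9 is the lowest at 0.946 to 1.71, and replicate 2 (triangles) is visibly above the others for Mb, Egln3 and Car9.

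Within GAS, replicate 2 had the highest value for 8 of the 10 members, while it was the highest for 33.7% of the 9874 genes with a mean RPKM over 1. It was 2.07-fold above the mean of the other replicates for Egln3, 1.89-fold for Mb, 1.67-fold for Car9 and 1.37-fold for Vegfa. For Epas1, Egln1, Hif1a and Vegfb the factor was 1.04 to 1.16. Bnip3 was highest in replicate 3 and Ndrg1 in replicate 1. Of 25 other HIF targets, 14 were highest in replicate 2. This count is not limited to a mean RPKM over 1, which 20 of the 25 had, and includes a gene without counts in GAS. All 6 slow fiber markers were also highest there, with a summed level of 1032 CPM against 911 and 636 CPM, and factors of 1.23 to 1.39. Of 6 fast fiber markers, 3 were highest in replicate 2 and 3 in replicate 1. The factor was 2.28 for Myh1 and 1.97 for Myh2, above that of every slow fiber marker. The 5 erythroid markers were all highest in replicate 1. Whether fiber content has a part in these values was not tested.

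Likeness to the pattern of a member was measured as Pearson's r over the 6 cultured libraries on log2(CPM + 1), among 13104 genes. The 5 genes most like Mb were Plpp7, Pla1a, Best3, Bmp4 and Lmod2, with r between 0.998 and 0.999, and 952 genes had an r over 0.95. All had their highest value in MT replicate 2 and the next in MT replicate 1, as Mb did. Plpp7, for example, was at 90.4 CPM in MT replicate 2, 37.7 CPM in replicate 1 and at most 0.858 CPM in the 4 other libraries. The 5 genes most like Vegfa were Clec2d, Dock4, Miga1, Garem1 and Trim3, with r between 0.989 and 0.996, and 116 genes had an r over 0.95. These had their highest value in MT replicate 1, such as Clec2d with 10.3 CPM, against 1.65 CPM in MT replicate 2. The 6 libraries come from 3 conditions and are not independent points, and r describes their pattern only.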

How the data were processed

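RNA sequencing of 3 GAS, 2 MT, 2 MB and 2 MB_lac libraries was used. GAS libraries were made from polyA RNA and those of cultured cells by the Smart-seq2 protocol, in which cDNA is amplified by PCR without molecular identifiers. The authors trimmed reads with Trim Galore 0.6.6, aligned them to mm10 with HISAT2 2.2.1 and counted them with featureCounts of Subread 2.0.1, and what they deposited are unnormalized read counts by gene. The annotation release and the handling of strand and of reads with several alignments are not given in the sources used here, so reads of overlapping or antisense genes may be included.

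Counts were analysed with edgeR 4.0.16 in R 4.3.3 (filterByExpr, TMM, quasi-likelihood test, Benjamini-Hochberg adjustment over all genes tested) with only the libraries compared and no block, and the standard error is the absolute log2FC divided by the root of the F statistic. The thresholds were an adjusted p under 0.05 for MT against MB and a nominal p under 0.01 for lactate, with an absolute log2FC over 0.5. CPM were scaled separately for GAS and for cultured cells. Exon lengths came from GENCODE M21. GAS was not tested against culture since the protocols differ. Intervals and floors cover counting error only, and a fold against libraries without counts used a floor of 3 counts per library. Scripts were tested on simulated data. DESeq2 1.42.0 and Python 3.11.15 (numpy 2.4.6, pandas 2.3.3, scipy 1.17.1, matplotlib 3.10.9) were also used.

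The members and lists were chosen with earlier results of these data known. Genes named were all 10 members and, in each list, up to 4 called genes with the largest change, the uncalled gene with the highest level, and the 5 genes most like Mb and Vegfa; Hmox1, Kdr and Flt4 were named after their values were seen, as was Pax7. Alternatives were RLE size factors, DESeq2, edgeR's likelihood ratio test, no filter or at least 10 counts per library, ribosomal RNA genes left out, all 6 cultured libraries in 1 fit, a replicate block, other thresholds and lengths, and leaving out each replicate. A block with crossed numbers and direct count ratios for Car9 and Epas1 were added after seeing the data. Chromatin data and other tissues of the study were not analysed here.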

Additional observations from a re-analysis of the deposited data

How the results depend on the processing

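Of 572 values recomputed under an alternative, 532 were close to the reported ones: fitted values kept their direction and their side of the threshold, counts of genes stayed within 1.5 times, and GAS levels within 1 SD. With 1 library left out, members called higher in MT ranged from 2 to 5, other HIF targets called higher from 2 to 11 and lower from 0 to 1, oxygen sensing partners called lower from 0 to 2, and VEGF family genes called higher from 0 to 2. The 5 members were reached without MB replicate 2, where Hif1a and Car9 joined. With all 6 cultured libraries in 1 fit, the number of HIF targets called lower was 0, as Hmox1 had an adjusted p of 0.0503. With 1 library left out, log2FC of MT over MB ranged from -0.13 to 0.56 for Egln3, -0.0164 to 0.27 for Elob and -0.0383 to 1.54 for Nrp1. For lactate the ranges were -1.18 to 0.45 for Mb, -0.37 to 1.42 for Hif1a, -0.16 to 0.22 for Vegfa, -0.52 to 0.62 for Vegfb and -0.49 to 1.29 for Ndrg1. The lactate log2FC of Vegfa was 0.03 with RLE size factors (0.032) and with DESeq2 (0.033). None of the alternatives run gave a lactate call among the members. With lengths of the longest transcript, GAS levels were 4.02 RPKM for Hif1a, 57.4 for Vegfa, 48.2 for Vegfb, 113 for Bnip3 and 3.8 for Ndrg1, and the separations of Egln1 from Vegfa and of Hif1a from Ndrg1 ended. Apart from the change of length itself, the cause of these shifts was not tested.

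Replicate numbers recur in MT, MB and MB_lac, but the labels do not say that they mark shared cultures. Deviations of same-numbered libraries correlated with r = -0.13 across 12921 genes for MT and MB and with r = 0.70 across 11804 genes for lactate and control. With the replicate block, 3 members and 9 other HIF targets were called higher in MT, log2FC were 9.13 for Mb, 3.33 for Bnip3 and 2.75 for Ndrg1, and 1 HIF target was called lower. The block with crossed numbers, chosen after seeing the data, gave 2 members and 8 targets, and Ndrg1 was not called, with a log2FC of 2.72 and an adjusted p of 0.0872. For lactate the block called 0 members but 13 of all 11804 genes at the study's limit, against 0 without it, and 75 genes were higher and 91 lower at an unadjusted p under 0.05. The block lowered the estimated variation between replicates (biological CV) from 0.455 to 0.225. Egln3 had a log2FC of -0.63 with a p of 0.0536. Depth limits Mb, Epas1 and Car9 in MB and MB_lac, where 3 counts are 0.334 to 0.577 CPM by depth alone, before scaling for composition.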
